A study of Mus musculus with 36 samples.

Results

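Liver RNA of control mice given CL316243 was compared with liver RNA of fed control mice. The 12 arrays were those titled CTRL and fed, 6 with CL316243 and 6 without it, out of 36 arrays in the study, each labelled from 200 ng of total RNA. No label says whether an array is 1 mouse, so p-values measure the spread between these samples. All mice were males on a C57Bl/6J background. CTRL is the control genotype of AAKO, in which ATGL, the adipose triglyceride lipase made from Pnpla2, is missing from white fat, and the labels used here do not say which Cre line or which cells carried the deletion. Both CTRL groups ate freely. The CL316243 group belonged to experiment 1 and received a single dose by gavage of 3 mg/kg CL316243 in 0.5% carboxymethyl cellulose at Zeitgeber time (ZT) 10, where ZT counts hours from lights on. The fed group belonged to experiment 2, and no gavage or vehicle is given for it. All mice were killed at ZT 16, in the dark phase. Treatment, gavage and experiment therefore cannot be told apart within CTRL. The AAKO groups given the same agent or left fed, 6 arrays each, and the CTRL group fasted for 24 h in experiment 1, 6 arrays, were used beside the CTRL groups.

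CL316243 is an agonist of the β3 adrenergic receptor, which in mice is found mainly on adipocytes. Its activation raises cAMP in adipocytes and starts lipolysis, in which ATGL takes the first fatty acid off stored triglyceride, and the released fatty acids reach the liver through the blood. In hepatocytes fatty acids can be oxidised, made into ketone bodies or stored in lipid droplets, and they activate PPARα, the nuclear receptor that drives genes of fatty acid oxidation. β3 agonists also raise insulin release in mice, and insulin induces lipogenic genes in the liver while it represses gluconeogenic ones. The comparison asks what the liver transcriptome of a fed mouse looks like 6 h after a dose of CL316243. Lipolysis, fatty acids and insulin were not measured in the values used here.

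The values below are relative log2 signals, log2 of the processed spot intensity after subtracting the array's 75th percentile on the same scale. A level of 0 is the brightness of that percentile, and levels of different probes are not set against each other. A difference is CL316243 minus fed, on the log2 scale, from a limma fit over all 36 arrays with the wash batch as a term, and a gene was called at a Benjamini-Hochberg adjusted p under 0.05. Errors on differences are SEs of that fit. On the 12 arrays between 60.7% and 65.2% of probes were well above background. Alb, which encodes albumin, was bright and level. Its signal ran from 10.60 to 10.80 (median 10.68) with CL316243 and from 10.63 to 10.90 (median 10.64) in fed mice. The difference was 0.00 ± 0.05. Of 9 hepatocyte markers, Alb among them, 4 fell and none rose, as given below. Fed replicate 6 lay apart from the other fed arrays for Saa1, Saa2, Lcn2, Mt2, Srebf1 and Elovl5, and fasted CTRL replicate 2 lay at 81.3 on the first component of all 36 arrays against 16.8 to 29.2 for the other fasted CTRL arrays.

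On the first principal component of the 12 CTRL arrays, which held 34.3% of the variance, the CL316243 arrays lay between -42.8 and -19.6 and the fed arrays between 26 and 45.6. The groups did not overlap on it. The second component held 12.1% and spread arrays within the groups, with CL316243 replicate 4 at 40.3 and replicate 5 at -33.8.

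**Figure D1:**
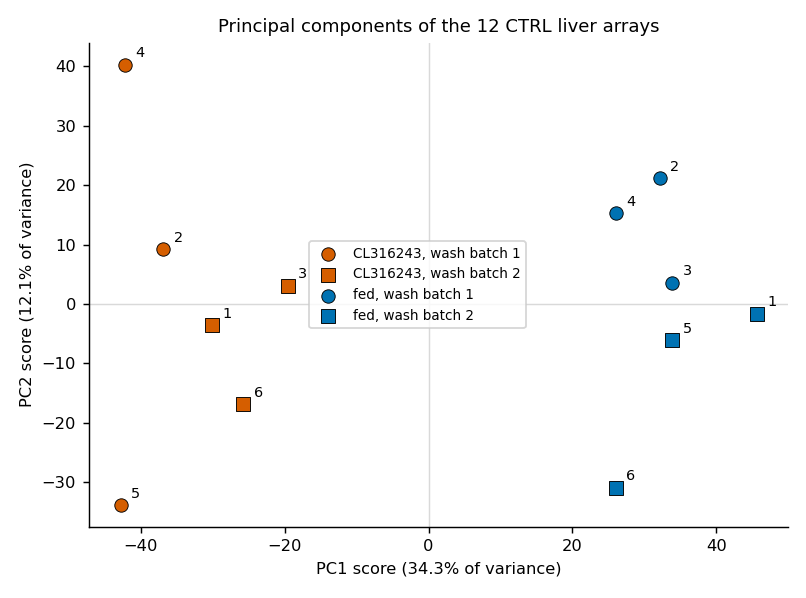
Principal components of the 6 CL316243 and 6 fed CTRL arrays over the tested genes, with the first component (34.3% of variance) on the x axis and the second (12.1%) on the y axis. Each point is 1 array, numbered by replicate. All CL316243 arrays lie below 0 and all fed arrays above 0 on the first component.

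Of 24252 genes tested, 5611 (23.1%) were called, 2539 (10.5%) higher with CL316243 and 3072 (12.7%) lower. The median difference over all genes was -0.03. Of the called genes 2191 (9.03% of those tested) differed by at least 1.5-fold, 1028 (4.24%) higher and 1163 (4.8%) lower, and 780 by at least 2-fold. The 2 groups did not overlap for 2980 genes (12.3%), with the CL316243 arrays higher for 1383 (5.7%) and lower for 1597 (6.59%). The typical precision was a median SE of 0.13 over genes, and the median SD over arrays was 0.204 with CL316243 and 0.201 in fed mice. Leaving out 1 array of the 12 at a time gave between 4649 and 5529 called genes. The excess of lower over higher calls depended on the scaling. Quantile normalization gave 2782 higher and 2685 lower, and with normexp background correction added the counts were 2819 and 2800. The authors' deposited log2 values gave 2639 higher and 2833 lower. Scaling to the array median in place of the 75th percentile gave 2260 higher and 3005 lower. All 5611 called genes had the same sign when fitted in either wash batch alone. Of these, 2000 were still called in wash batch 1 alone and 1538 in wash batch 2 alone. The genes were called on the same arrays, so the shared sign is not a separate test.

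The 12 genes with the largest higher values that were called without overlap of the groups came from several functions. Egr1, an immediate early transcription factor induced by growth factor signalling, led them: its relative log2 signal ran from 1.16 to 4.74 (median 3.99) with CL316243 and from -2.33 to -0.05 (median -1.58) in fed mice. That is a 25.6-fold difference (4.68 ± 0.49 SE, adjusted p = 5.08e-08). The 4 highest CL316243 arrays lay at 3.82 or above and the 2 lowest at 1.16 and 1.60, all above the highest fed array. Nipal1, a magnesium transporter, was 3.79 ± 0.47 higher (adjusted p = 7.39e-07), with fed replicate 4 at -7.54 below the other fed arrays. Fut1, a fucosyltransferase, was 3.76 ± 0.45 higher, although its probe was well above background on only 2 of 6 fed arrays. Ly6d, a GPI-anchored surface protein, ran from 0.53 to 3.35 (median 1.35) with CL316243 and from -2.45 to -1.47 (median -2.32) in fed mice, a difference of 3.68 ± 0.43 (adjusted p = 3.16e-07). Il1rn, the secreted antagonist of the interleukin 1 receptor, was 3.62 ± 0.43 higher by its brighter probe, while another Il1rn probe gave 0.88.

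Plch2, a phospholipase C, ran from -3.40 to -0.16 (median -1.11) with CL316243 and from -5.61 to -3.89 (median -4.77) in fed mice (3.31 ± 0.42 SE, adjusted p = 1.12e-06). Its signal was well above background on 4 of 6 fed arrays. Fgf21, a hepatokine induced by PPARα in fasting (probe at chr7:52869305-52869364 in mm9), ran from 0.76 to 2.25 (median 1.09) with CL316243 and from -3.42 to -0.98 (median -1.75) in fed mice. Every CL316243 array lay above every fed array, and the difference was 9.56-fold (3.26 ± 0.59 SE, adjusted p = 0.00013). Atp2b2, a plasma membrane calcium pump, differed by 3.09 ± 0.53 and Nr1d1, which encodes the clock repressor REV-ERBα, by 2.93 ± 0.38 (adjusted p = 1.41e-06). Cyp4a14, a fatty acid omega-hydroxylase and PPARα target, differed by 2.84 ± 0.35, with 4 of 6 fed arrays well above background. Rab30, a small GTPase of the Golgi, differed by 2.78 ± 0.34 (adjusted p = 4.77e-07), and the adaptor protein Stap1 by 2.70 ± 0.40. The fed group was tight for Rab30, between -1.28 and -0.78. With normexp background correction and quantile normalization in place of the processed intensity, the dim genes Nipal1 (1.47), Fut1 (1.08), Il1rn (1.28), Plch2 (1.21), Atp2b2 (1.75), Cyp4a14 (0.96) and Stap1 (1.27) had smaller differences that were called.

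Among the 12 lowest, chaperone, insulin-responsive and retinoid genes stood side by side. Hspa1a, which encodes the inducible chaperone HSP70 (probe at chr17:35106766-35106825 in mm9), ran from -2.33 to -1.07 (median -1.49) with CL316243 and from 0.58 to 2.94 (median 2.01) in fed mice. The difference was -3.60 ± 0.38 SE, adjusted p = 4.33e-08, and its neighbour Hspa1b differed by -2.77 ± 0.29. The Hspa1a and Hspa1b transcripts are nearly identical, so their probes may read both. Angptl8, an insulin-induced hepatokine that inhibits lipoprotein lipase, ran from 3.04 to 4.78 (median 3.46) with CL316243 and from 5.28 to 7.75 (median 7.20) in fed mice (-3.27 ± 0.60 SE, adjusted p = 0.000148). Cyp26a1, which degrades retinoic acid, differed by -3.25 ± 0.40.

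Tnnc1, which encodes a troponin C, was lower at -2.88 ± 0.32 and Lingo4, a leucine-rich repeat membrane protein, at -2.81 ± 0.41. Hapln1, a link protein of the extracellular matrix, was not well above background on any CL316243 array and was on all 6 fed arrays. Its level was 4.82-fold lower on this scale with each CL316243 array set no lower than that array's dimmest signal well above background. The measured means were -5.99 with CL316243 and -3.20 in fed mice (limma adjusted p = 5.38e-07). With the authors' deposited log2 table the difference was -1.05, so the size of the fall depends on the processing. Vpreb3, a gene of B cell receptor assembly, differed by -2.76 ± 0.28, and the ligand gene Shh by -2.68 ± 0.41, with 2 of 6 CL316243 arrays well above background for Shh. The collagen gene Col27a1 differed by -2.52 ± 0.23 and Dusp1, a phosphatase that switches off MAP kinases, by -2.37 ± 0.35 (adjusted p = 9.67e-06). The groups did not overlap for any of the 12 lowest genes. With the same normexp setting the differences of Tnnc1 (-1.42), Lingo4 (-1.54), Hapln1 (-0.49), Vpreb3 (-1.60) and Shh (-0.64) were smaller and called.

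**Figure D2:**
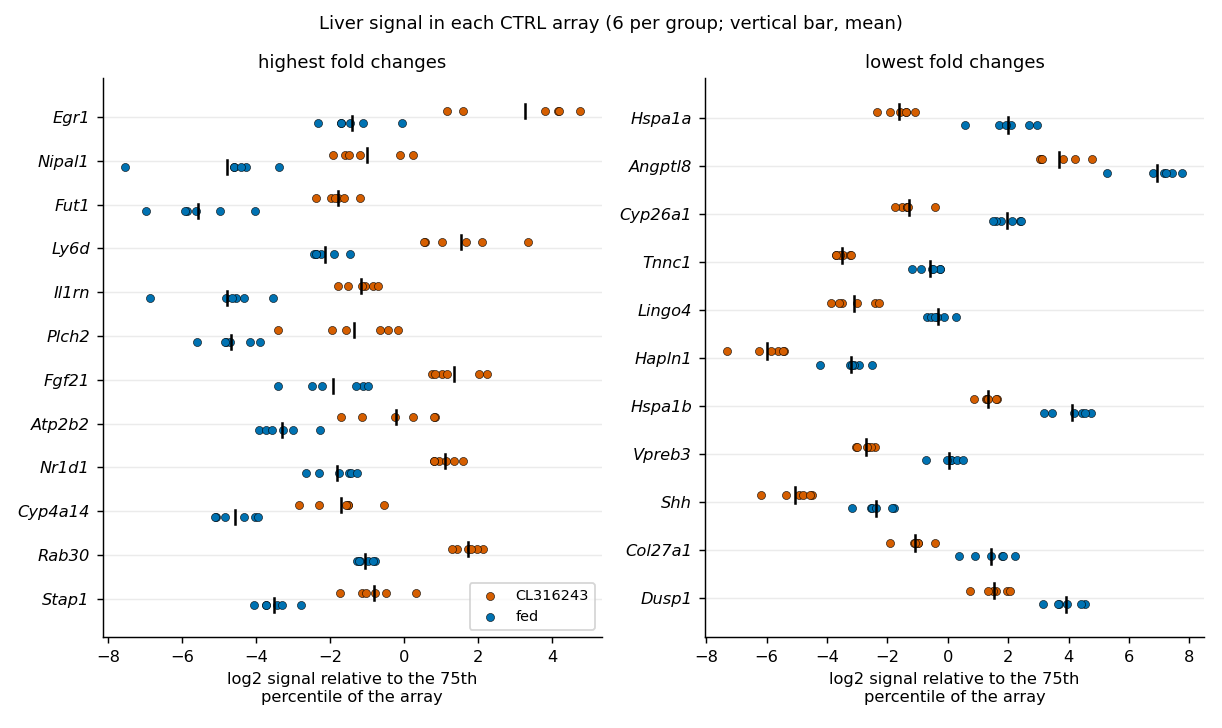
Relative log2 signal (x axis) of genes from the 12 largest higher and 12 largest lower values among called genes without overlap, 1 row per gene. Each point is 1 array of the CL316243 or fed CTRL group. Vertical bars are group means. In every row the points of the 2 groups are separate, and the largest mean differences are those of Egr1 (4.68) and Hspa1a (-3.60).

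Pathway members were grouped in 36 lists of genes, and 13 lists of cell type markers were set beside them. The plot of the lists gives their counts and medians, and the share called over all genes, 10.5% higher and 12.7% lower, is the background for each count. Without fed replicate 6 the counts of 20 of the 49 lists changed, by at most 2 members in a direction except for amino acid transporters and oxidative phosphorylation. The brightest probe stood for each gene. Another probe was not called for genes that include Abhd5, Acacb, Apoa5, Asl, Cdkn1a, Elovl5, Fga and Fkbp5. The same held for Fn1, Gyg, Hnf4a, Myc, Psat1, Socs2, Stat3 and Tfec.

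**Figure D3:**
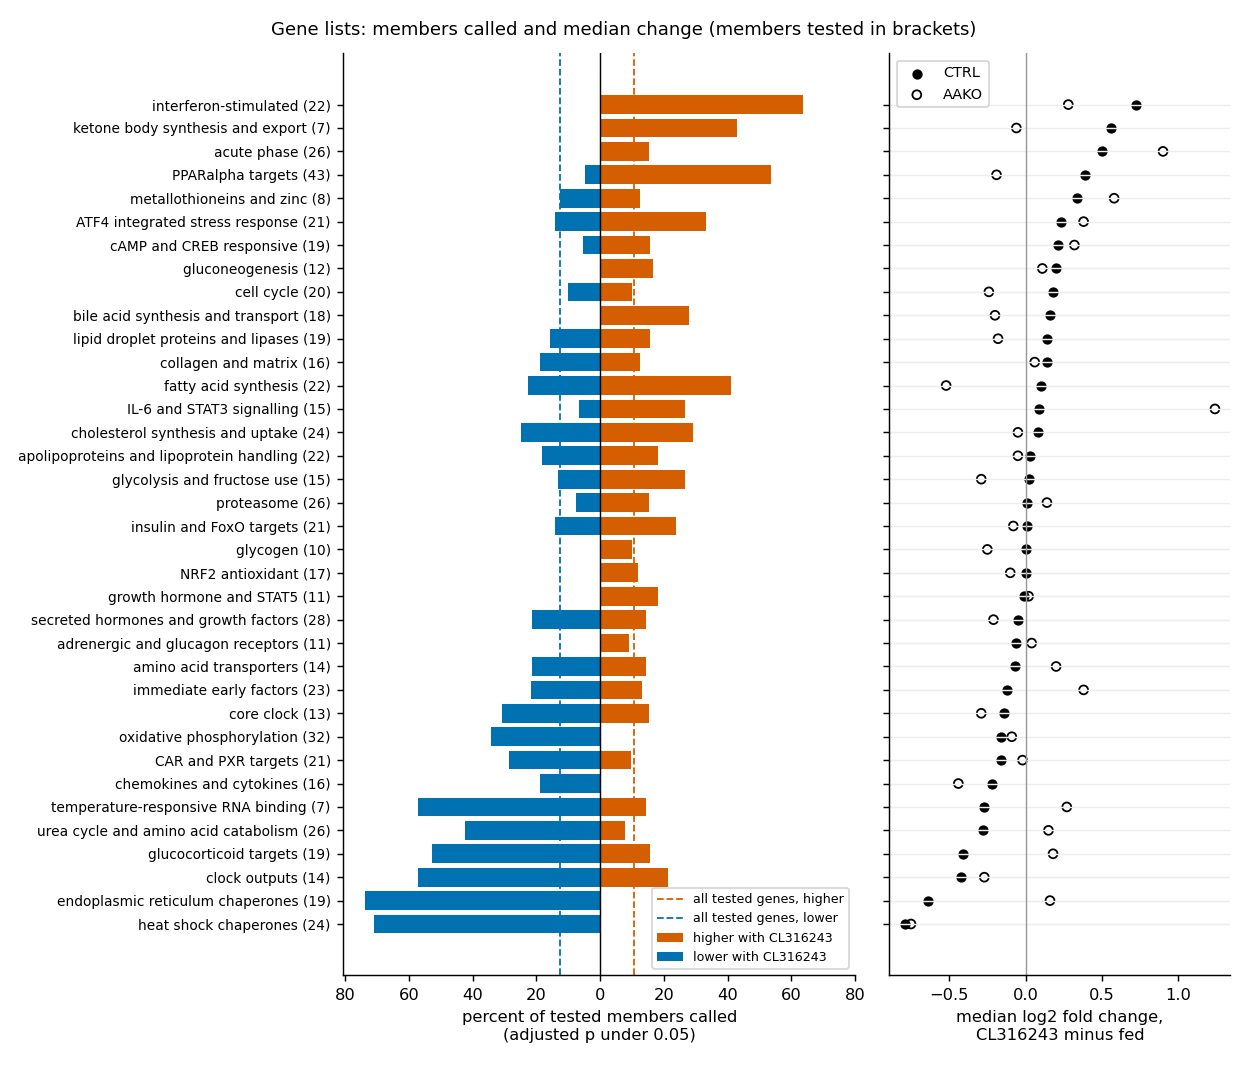
Left, percent of tested members called higher (bars to the right) or lower (bars to the left) with CL316243 in CTRL for the 36 pathway lists, with dashed lines at the shares over all tested genes; right, median log2 fold change of each list in CTRL (filled) and AAKO (open). Interferon-stimulated genes (median 0.72) and PPARα targets (0.39) have the longest bars to the right, and heat shock (-0.79) and endoplasmic reticulum chaperones (-0.64) the longest to the left.

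PPARα targets were higher as a list. Of 43 tested targets 23 rose, 2 fell (1 without fed replicate 6) and 18 were not called, and the list median was 0.39 against -0.03 over all genes. After Fgf21 and Cyp4a14, members with large rises included acyl-CoA thioesterases, the other Cyp4a genes and Plin2 (2.32), described below with the lipid droplet genes. Cyp4a10, an omega-hydroxylase of fatty acids, ran from 3.45 to 5.25 (median 4.78) with CL316243 and from 1.36 to 2.96 (median 2.21) in fed mice. The groups did not overlap (2.38 ± 0.32 SE, adjusted p = 2e-06), and Cyp4a31 differed by 2.60. Cyp4a10, Cyp4a14 and Cyp4a31 share long stretches of sequence, so a part of their signals may be common.

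Acot1, a cytosolic thioesterase that frees fatty acids from CoA, ran from 4.04 to 5.41 (median 4.82) with CL316243 and from 2.38 to 3.54 (median 3.30) in fed mice (1.69 ± 0.37 SE, adjusted p = 0.00119). The peroxisomal thioesterases Acot3 and Acot4 rose by 2.70 and 1.0, and the mitochondrial Acot2, a close copy of Acot1, by 2.05. Crat, which moves acetyl and short acyl groups between CoA and carnitine, ran from 2.63 to 4.10 (median 3.51) with CL316243 and from 2.01 to 2.44 (median 2.20) in fed mice (1.24 ± 0.19 SE, adjusted p = 1.86e-05). Vnn1, a pantetheinase that returns a precursor of CoA, rose by 1.03 and Angptl4, a secreted inhibitor of lipoprotein lipase, by 1.14. The genes that carry out β-oxidation itself moved less: Cpt1a, the gate for entry of fatty acids into mitochondria, rose by 0.75 ± 0.11 (adjusted p = 1.62e-05), Hadha by 0.34, Hadhb by 0.38, Etfdh by 0.39 and Acadm by 0.28. Ehhadh (0.63, adjusted p = 0.0549), Acadl (0.18) and Acadvl (0.16) were not called. The 2 members that fell were Cd36, a fatty acid transporter (-0.71), and Tfec (-1.26), a transcription factor also found in macrophages.

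Pdk4 stood apart from the thioesterases. It encodes the kinase that shuts pyruvate out of the mitochondrion and is a classical fasting gene, and its levels ran from -1.81 to -0.79 (median -1.04) with CL316243 and from -1.18 to 0.45 (median -0.79) in fed mice. The groups overlapped and the difference of -0.54 ± 0.48 was not called (adjusted p = 0.467).

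Of 7 genes of ketone body synthesis and export 3 rose and none of the others was called, with a median of 0.56. Slc16a1, a monocarboxylate transporter that carries ketone bodies and lactate, differed by 0.93 ± 0.13 (adjusted p = 2.96e-06). Slc16a6, a transporter that exports ketone bodies from hepatocytes, differed by 0.69 ± 0.25 (adjusted p = 0.0458), a call lost in 10 of the 12 fits without 1 array and with the replicate block (adjusted p = 0.0665). Bdh1, which makes β-hydroxybutyrate, was at 0.56 and not called (adjusted p = 0.0967).

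Of 19 lipid droplet genes 3 rose and 3 fell (1 without fed replicate 1), shares near those over all genes. Plin2, the coat protein of hepatocyte lipid droplets, ran from 7.62 to 8.51 (median 7.93) with CL316243 and from 5.57 to 5.90 (median 5.72) in fed mice. That is 4.99-fold (2.32 ± 0.25 SE, adjusted p = 5.68e-08), and a second probe gave 1.73. Cidec, which fuses small droplets into large ones, ran from 1.23 to 3.72 (median 2.02) with CL316243 and from 0.04 to 0.91 (median 0.52) in fed mice (1.76 ± 0.41 SE, adjusted p = 0.002). Plin3 rose by 0.35. Liver Pnpla2, the gene of ATGL itself, ran from 4.40 to 4.82 (median 4.64) with CL316243 and from 4.10 to 4.58 (median 4.44) in fed mice, and the overlapping groups did not differ beyond their spread (0.18 ± 0.19 SE, adjusted p = 0.53). Its cofactor Abhd5 fell by 0.43 on the log2 scale and Fitm1 by 0.75. Pnpla3, a lipid droplet enzyme induced by SREBP-1c, was at -1.73 ± 0.52 (adjusted p = 0.0152) by its brighter probe and at 0.19 by another. The Pnpla3 call was lost with normexp correction (-0.49), the mean of all probes (-0.77), the slide as a fixed factor (-1.43) and without fed replicate 4 (-1.29), and its difference was -2.68 in wash batch 1 and -0.77 in wash batch 2.

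Genes of fatty acid synthesis went in both directions. Of 22 tested, 9 rose and 5 fell, with a median of 0.10. The count of risen genes was 4 when only the groups compared were fitted and 5 without fed replicate 5, and with the mean of all probes of a gene the median was -0.08. Srebf1, which encodes the lipogenic transcription factor SREBP-1c, ran from 4.74 to 5.17 (median 5.11) with CL316243 and from 6.48 to 7.33 (median 7.05) in fed mice. The groups did not overlap (-2.0 ± 0.19 SE, adjusted p = 8.46e-09), and without fed replicate 6 the difference was -2.10. Thrsp, a lipogenic gene that responds to insulin, carbohydrate and thyroid hormone, was at -2.20 ± 0.40 (adjusted p = 0.00013), and Fasn, the fatty acid synthase, at -0.81 ± 0.26 (adjusted p = 0.0215) with overlapping groups and a call lost without CL316243 replicate 2 (-0.69) or fed replicate 4 (-0.65) and with the slide as a fixed factor (-0.74). Dgat2, the last step of triglyceride synthesis, fell by 0.56. In the same livers Elovl5, a fatty acid elongase, ran from 6.07 to 6.58 (median 6.36) with CL316243 and from 4.67 to 5.19 (median 5.15) in fed mice (1.29 ± 0.15 SE, adjusted p = 3.64e-07), and the difference was 1.21 without fed replicate 6. Me1, the malic enzyme that supplies NADPH, was at 0.99 ± 0.19, Acaca at 0.73, Acacb at 0.74 and Acly, the ATP citrate lyase, at 0.62. Scd1, the stearoyl-CoA desaturase, was at -0.40 and not called (adjusted p = 0.138).

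Cholesterol genes were also split, with 7 of 24 higher and 6 lower. Of the synthesis enzymes Hsd17b7 (1.03), Cyp51 (0.73) and Idi1 (0.67) rose. Hmgcs1, which makes the HMG-CoA used for sterols, was at 1.16 ± 0.21 by its brighter probe, whose mm9 position is on an unplaced part of chromosome 13, and at -0.05 by another. Mvd, a later enzyme of the pathway, fell by 0.75. Insig1, which holds SREBP in the endoplasmic reticulum, ran from 1.02 to 1.61 (median 1.12) with CL316243 and from 2.17 to 2.77 (median 2.62) in fed mice (-1.32 ± 0.17 SE, adjusted p = 1.54e-06). With the mean of all probes of a gene, 4 members were higher.

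Insulin-responsive genes were called in both directions. Of 21 insulin and FoxO targets 5 rose and 3 fell, with a median of 0.01. Irs2, the insulin receptor substrate that FoxO1 induces when insulin is low, ran from 2.77 to 3.79 (median 3.02) with CL316243 and from 0.36 to 1.95 (median 0.86) in fed mice. The groups did not overlap (2.18 ± 0.31 SE, adjusted p = 5.81e-06). Igfbp1, a secreted IGF binding protein repressed by insulin, ran from 3.89 to 6.57 (median 6.07) with CL316243 and from 1.39 to 5.80 (median 3.11) in fed mice, with 1 low CL316243 array and 1 high fed array making the groups overlap (2.37 ± 0.59 SE, adjusted p = 0.00336). Insr rose by 0.47, Egfr, the EGF receptor gene, by 0.99 and Trib3, a pseudokinase that binds AKT, by 1.94 ± 0.32 (adjusted p = 3.5e-05). Srebf1 and Angptl8, given above, were among the 3 that fell.

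Of 12 gluconeogenesis genes 2 rose, Creb3l3 (0.51) and Fbp1 (0.24). Pck1, the cytosolic PEPCK, ran from 8.48 to 9.01 (median 8.77) with CL316243 and from 7.76 to 8.59 (median 8.41) in fed mice. It narrowly missed the threshold (0.49 ± 0.18 SE, adjusted p = 0.0513). Pck1 was called in 14 other settings that kept both wash batches, 4 of them among the 12 fits without 1 array. They included normexp correction (0.60), quantile normalization (0.59) and the authors' deposited table (0.52). G6pc, the catalytic subunit of glucose-6-phosphatase, differed by 0.47 ± 0.39 (adjusted p = 0.428), within the spread of its arrays. Quantile normalization in place of the 75th percentile raised the number called in this list to 5. Of 15 genes of glycolysis and fructose use 4 rose, among them the lactate dehydrogenase gene Ldha (0.48) and the triokinase Tkfc (0.74, against a called -0.93 by another probe), and 2 fell (1 without fed replicate 6), among them the phosphoglycerate kinase gene Pgk1 (-0.19). Of 10 glycogen genes only Gyg was called (0.47).

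The receptor that CL316243 acts on was not called in the liver. Adrb3 ran from 0.27 to 1.70 (median 1.29) with CL316243 and from 0.57 to 1.52 (median 1.21) in fed mice (0.02 ± 0.31 SE, adjusted p = 0.972), and the fat cell markers Adipoq, Lep, Plin1, Retn and Cfd were not called. Of 11 adrenergic, glucagon and insulin receptor genes only Insr was called. Of 19 cAMP and CREB responsive genes 3 rose and 1 fell. Pde4d, a phosphodiesterase that degrades cAMP and is induced by it, ran from -1.44 to -0.89 (median -1.16) with CL316243 and from -4.41 to -2.82 (median -3.50) in fed mice. The groups were separate (2.44 ± 0.21 SE, adjusted p = 1.79e-09), and with normexp correction the difference was 1.14 and called. Crem, the gene of the cAMP-inducible repressor ICER, was at 0.62 ± 0.16 (adjusted p = 0.00519), although its other probes ran between -0.74 and 0.51. Ppargc1a (0.42), Sik1 (-0.27), Nr4a1 (-0.25) and Fos (0.72), the usual hepatic CREB targets, were not called.

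Immediate early genes did not rise as a group. Of 23 tested, 3 rose and 5 fell, with a median of -0.12. Beside Egr1 the risen members were Junb (1.03 ± 0.21, adjusted p = 0.000555) and Myc (1.86 ± 0.68, adjusted p = 0.0462), and the Myc call was lost in 8 of the 12 fits without 1 array. Dusp1, Dusp6 (-0.80), Klf4 (-0.84), Ier5 (-1.06) and Atf3 (-1.40 ± 0.40, adjusted p = 0.0109) fell. The Atf3 value was -0.54 and not called after normexp background correction.

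Heat shock chaperones were lower. Heat shock factor 1 drives these genes, whose products refold damaged proteins. None of 24 rose, 17 fell and the median was -0.79. Beside Hspa1a and Hspa1b, Hsph1, a nucleotide exchange factor of HSP70, ran from 2.91 to 3.55 (median 3.16) with CL316243 and from 4.36 to 5.64 (median 4.94) in fed mice. CL316243 and fed arrays were separate (-1.83 ± 0.20 SE, adjusted p = 9.94e-08). The small heat shock protein gene Hspb1 was at -1.53 ± 0.21, the HSP40 gene Dnajb1 at -1.12 ± 0.15 and the cochaperone gene Bag3 at -1.23 ± 0.17 (adjusted p = 4.09e-06). The constitutive Hspa8 ran from 6.65 to 7.03 (median 6.74) with CL316243 and from 7.37 to 7.95 (median 7.64) in fed mice, with groups that did not overlap (-0.89 ± 0.11 SE, adjusted p = 1.04e-06). Hsp90aa1 fell by 0.77 and Hsp90ab1 by 0.51. The mitochondrial chaperonin gene Hspd1 ran from 7.09 to 7.28 (median 7.16) with CL316243 and from 7.21 to 7.46 (median 7.38) in fed mice and was not called (adjusted p = 0.0745), while its partner Hspe1 fell by 0.42.

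Chaperones of the endoplasmic reticulum were lower as well, in a list whose members fold secreted proteins and respond to ATF6 and XBP1. None of 19 rose, 14 fell and the median was -0.64, by the brightest probe of each gene. Dnajb11 fell by its brightest probe (-0.64), while another probe was called higher (2.05, adjusted p = 2.12e-05) and a further one gave -0.48. Creld2, an endoplasmic reticulum stress protein, ran from 5.04 to 6.34 (median 5.49) with CL316243 and from 6.36 to 8.04 (median 7.38) in fed mice. There was no overlap of the groups (-1.72 ± 0.24 SE, adjusted p = 3.53e-06). Manf, a secreted stress protein of the same compartment, was at -1.44 ± 0.22 (adjusted p = 1.66e-05) and Sdf2l1 at -1.29 ± 0.31. Hspa5, which encodes the master chaperone BiP, ran from 6.94 to 7.57 (median 7.15) with CL316243 and from 7.77 to 8.67 (median 8.18) in fed mice (-0.99 ± 0.14 SE, adjusted p = 3.96e-06). Hsp90b1, the compartment's HSP90, ran from 7.43 to 7.70 (median 7.54) with CL316243 and from 7.67 to 8.28 (median 8.11) in fed mice, with overlapping groups (-0.48 ± 0.12 SE, adjusted p = 0.00273). Xbp1 itself was at 0.20 and not called.

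The promoters of this list are shown because its members moved together. In the 250 bases before the RefSeq start (GRCm38.p6), searched on both strands, the endoplasmic reticulum stress element, CCAAT and CCACG with any 9 bases between them, was present in 8 of 17 members with a promoter sequence (47.1%) and in 35 of 27025 genes (0.13%). It was present in 5 of the 12 members that were called and in 3 of the 5 that were not. The 30-base windows below are written 5′ to 3′ on the strand of the gene, with the element in capitals.
Hspa5, chr2:34772020-34772049, plus strand: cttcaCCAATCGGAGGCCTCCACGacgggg
Creld2, chr15:88819515-88819544, plus strand: cttctCGTGGCGAGCCTCAATTGGtccaca
Syvn1, chr19:6046527-6046556, plus strand: cgcaaCCAATCGGCGGTAGCCACGggaaca
Dnajc3, chr14:118937822-118937851, plus strand: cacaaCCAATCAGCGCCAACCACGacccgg
Hspa5 and Creld2 carry the element in opposite orientations, and Syvn1, an E3 ligase of endoplasmic reticulum associated degradation, was at -1.05 and Dnajc3, a cochaperone of BiP, at -0.61. A heat shock element, GAA, TTC and GAA with any 2 bases between each, was found in 2 of 18 heat shock list promoters (11.1%, Hspd1 and Hspe1, which share a promoter) and in 0.514% of all genes, and a direct repeat for PPARα, AGGNCA repeated after any 1 base, in 1 of 33 PPARα list promoters (3.03%, Fabp1) and in 0.4% of all genes. The matches are descriptions of these windows and do not show binding.

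ATF4 targets of the integrated stress response, which answers amino acid shortage and other stress, rose for 7 of 21 and fell for 3, with Fgf21 and Trib3 held in other lists too. Atf5, a transcription factor translated under stress, ran from 8.18 to 8.52 (median 8.30) with CL316243 and from 6.81 to 7.20 (median 6.94) in fed mice. All arrays of the 2 groups were apart (1.34 ± 0.15 SE, adjusted p = 7.43e-08). Chac1, which degrades glutathione, was at 2.08 ± 0.50 (adjusted p = 0.00255), and Psat1 of serine synthesis at 1.69 ± 0.29. Atf4 itself was at -0.20 and not called, Ddit3, which encodes CHOP, fell by 0.79, and Ddit4, an inhibitor of mTORC1, was at -2.08 ± 0.47 (adjusted p = 0.00159).

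Interferon-stimulated genes were higher. Of 22 tested 14 rose, none fell and the median was 0.72. Usp18, the protease that removes ISG15 and damps interferon receptor signalling, ran from 2.31 to 3.09 (median 2.54) with CL316243 and from -0.19 to 0.80 (median 0.44) in fed mice. It was 4.54-fold higher with separate groups (2.18 ± 0.17 SE, adjusted p = 1.85e-10). Ifit1, which binds foreign RNA, ran from 0.27 to 1.51 (median 1.0) with CL316243 and from -1.59 to -0.69 (median -1.05) in fed mice (2.06 ± 0.24 SE, adjusted p = 2.3e-07). Rsad2, which encodes the antiviral enzyme viperin, was at 1.56 ± 0.22 (adjusted p = 5.98e-06), the ubiquitin-like modifier gene Isg15 at 1.18 ± 0.21 and the immunity-related GTPase gene Igtp at 1.24 ± 0.21. Of the transcription factors of the pathway, Irf9 (0.98) rose, while Irf7 (0.40), Stat2 (0.33) and Irf1 (0.27) were not called. Oas1a was at 0.57 ± 0.20 (adjusted p = 0.0322), with overlapping groups and a call that was lost in 6 of the 12 fits without 1 array.

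The interferon-stimulated response element, GAAA and GAAA with any 2 bases between them, searched in the same 250 bases on both strands, was present in 12 of 18 members with a promoter sequence (66.7%) and in 936 of 27025 genes (3.46%). It was found in 7 of the 10 called members and 5 of the 8 that were not called. The windows of 4 called members described above are shown in GRCm38.p6 and on the strand of the gene. A single match per window is in capitals, and the Isg15 window also holds an overlapping match that is not marked.
Ifit1, chr19:34640775-34640804, plus strand: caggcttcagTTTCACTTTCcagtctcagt
Isg15, chr4:156200865-156200894, minus strand: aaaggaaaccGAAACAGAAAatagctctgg
Rsad2, chr12:26456553-26456582, minus strand: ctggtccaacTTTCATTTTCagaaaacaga
Igtp, chr11:58199512-58199541, plus strand: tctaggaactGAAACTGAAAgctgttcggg
The Ifit1 window and the Rsad2 window hold the element on the opposite strand to the gene, and the Isg15 and Igtp windows on the strand of the gene.

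Acute phase genes, which the liver secretes in response to interleukin 6 and interleukin 1, were called for few members. Of 26 tested 4 rose and none fell, with a median of 0.50, and 7 rose with quantile normalization. The called members were Il1rn and the 3 fibrinogen chains Fga (0.69 ± 0.22, a call lost in 4 of the 12 fits without 1 array), Fgb (0.54 ± 0.14, adjusted p = 0.00443) and Fgg (0.51 ± 0.14). Saa1, which encodes the main serum amyloid, ran from 7.49 to 10.90 (median 9.49) with CL316243 and from 6.09 to 10.14 (median 7.19) in fed mice, and the overlapping groups were not called (1.84 ± 1.0 SE, adjusted p = 0.197). Fed replicate 6 was at 10.14, above the next fed array at 7.42, and without it the difference was 2.34 and not called (adjusted p = 0.101). Saa2, a near-identical copy, was not called either (1.90 ± 1.0 SE, adjusted p = 0.177, and 2.39 without fed replicate 6). Lcn2, an iron-binding acute phase protein, ran from 1.39 to 7.79 (median 4.21) with CL316243 and from 0.98 to 6.40 (median 1.67) in fed mice (1.61 ± 1.30 SE, adjusted p = 0.41), with a difference of 2.37 without that array.

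Of 15 genes of IL-6 and STAT3 signalling 4 rose and 1 fell, and 3 rose and none fell without fed replicate 6. Socs3, the feedback inhibitor of the pathway, ran from 2.92 to 4.49 (median 3.85) with CL316243 and from 0.79 to 3.14 (median 1.69) in fed mice (1.96 ± 0.49 SE, adjusted p = 0.00384). Stat3 ran from 5.34 to 5.69 (median 5.6) with CL316243 and from 3.95 to 5.10 (median 4.10) in fed mice. Its groups did not overlap, with the highest fed array at 5.10 and the lowest CL316243 array at 5.34 (1.27 ± 0.19 SE, adjusted p = 1.21e-05). Pim1 rose by 0.83 and the receptor subunit gene Il6st fell by 0.31, although another Il6st probe was 0.56 higher and called. None of 16 chemokine and cytokine genes rose and 3 fell: Cxcl13 (-2.06 ± 0.47, adjusted p = 0.00148, and -0.83 with normexp correction), Il1b (-1.34) and Cxcl16 (-0.60). The interleukin 6 gene was not well above background on any array of the 2 groups.

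Core clock genes were called in both directions. BMAL1 and CLOCK drive the Per, Cry and Nr1d genes, whose products close the loop by repressing BMAL1, CLOCK or their targets. Of 13 tested 2 rose, Nr1d1 and Nr1d2 (0.68 ± 0.16), and 4 fell. Arntl, which encodes BMAL1, ran from -3.56 to -2.31 (median -2.57) with CL316243 and from -1.48 to 0.47 (median -0.67) in fed mice. No array of one group reached into the other (-2.17 ± 0.28 SE, adjusted p = 1.53e-06). Per2 ran from 1.75 to 2.36 (median 2.12) with CL316243 and from 3.98 to 4.13 (median 4.07) in fed mice (-1.96 ± 0.16 SE, adjusted p = 1.02e-09), and a second Per2 probe gave -0.60. Cry1 was at -1.5 ± 0.14 (adjusted p = 8.46e-09), and with normexp correction Cry1 was at -0.57 and Arntl at -1.17. Clock (0.00), Per1 (-0.41) and Per3 (0.54) were not called by their brightest probes, while another Clock probe gave -0.84 (adjusted p = 3.1e-07). Of 14 clock outputs 3 rose and 8 fell, and 1 rose without fed replicate 1 or fed replicate 4. Dbp, a PAR bZIP factor under direct BMAL1 control, ran from 6.15 to 6.82 (median 6.66) with CL316243 and from 4.16 to 5.68 (median 4.84) in fed mice (1.74 ± 0.33 SE, adjusted p = 0.000268), and Rgs16, a regulator of G protein signalling with a daily rhythm, was at 2.57 ± 0.86 (adjusted p = 0.0279), a call lost in 5 of the 12 fits without 1 array. Nampt, the rate-limiting enzyme of NAD salvage, fell by 1.53 and Usp2 by 1.47. All mice were killed at the same ZT, and no feeding times are given.

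Of 19 glucocorticoid targets tested 3 rose and 10 fell, with a median of -0.41. Tsc22d3, which encodes GILZ, ran from 3.30 to 4.15 (median 3.67) with CL316243 and from 5.54 to 6.03 (median 5.71) in fed mice. CL316243 and fed arrays were separate (-2.01 ± 0.24 SE, adjusted p = 4.22e-07). Ddit4, Dusp1, Cdkn1a (-1.90), Zbtb16 (-1.56), Sgk1 (-0.96) and Fkbp5 (-0.75) fell too. Tat, the tyrosine aminotransferase, ran from 6.84 to 7.35 (median 7.0) with CL316243 and from 7.72 to 8.16 (median 8.09) in fed mice (-0.98 ± 0.13 SE, adjusted p = 2.62e-06). The risen members were Klf9 (0.74), Igfbp1 and Mt2. Mt2, a metal-binding stress protein, ran from 3.58 to 9.41 (median 7.29) with CL316243 and from 2.30 to 9.48 (median 3.70) in fed mice (2.66 ± 0.94 SE, adjusted p = 0.0379), with fed replicate 6 at 9.48 above the next fed array at 3.89. Without that array the difference was 3.64 (adjusted p = 0.0015), and the call was lost in 9 of the other 11 fits without 1 array. Within wash batch 1 its difference was 5.01 and within wash batch 2, which holds fed replicate 6, it was 0.31.

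Genes of amino acid catabolism and the urea cycle fell for 11 of 26 members and rose for 2, with a median of -0.28. Cps1, the first enzyme of the urea cycle, ran from 5.80 to 6.23 (median 6.2) with CL316243 and from 6.44 to 6.96 (median 6.70) in fed mice (-0.60 ± 0.12 SE, adjusted p = 0.000431). Asl fell by 0.52 and Prodh, the proline dehydrogenase, by 0.82. Of 21 CAR and PXR targets, the drug-metabolising genes of the liver, 2 rose and 6 fell (1 and 5 without fed replicate 6). Cyp2b10 ran from -1.68 to 0.62 (median -1.02) with CL316243 and from 0.74 to 1.32 (median 1.03) in fed mice, with CL316243 replicate 4 at 0.62 above the rest of its group and below all fed arrays (-1.89 ± 0.58 SE, adjusted p = 0.0161). Cyp2b9, a close copy of Cyp2b10, was at -1.99 ± 0.64 (adjusted p = 0.0217), with the same array apart at -0.80.

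Of 18 bile acid genes 5 rose and none fell (1 fell without fed replicate 6): Cyp8b1, which sets the share of cholic acid (1.02 ± 0.22, adjusted p = 0.000849), the phospholipid pump gene Abcb4 (0.89 ± 0.10), the bile salt pump gene Abcb11 (0.59), Nr1h4, which encodes the bile acid receptor FXR (0.51), and Klb, the coreceptor of FGF21 (0.61). Cyp7a1, the rate-limiting enzyme of bile acid synthesis, was at 0.74 and not called (adjusted p = 0.225). Among 22 genes of lipoproteins 4 rose and 4 fell. Apoa4, an apolipoprotein of triglyceride-rich particles, ran from 5.68 to 7.25 (median 6.38) with CL316243 and from 4.09 to 5.19 (median 4.76) in fed mice (1.65 ± 0.27 SE, adjusted p = 3.98e-05), and Apoa5 rose by 0.56 and Mttp, which loads lipid onto ApoB, by 0.32. Among 28 genes of secreted factors 4 rose and 6 fell. Inhbe, which encodes the hepatokine activin E, a suppressor of adipose lipolysis, was at 1.02 ± 0.31 (adjusted p = 0.0151), and Tsku, a secreted leucine-rich protein, at -1.95 ± 0.27. Of 11 growth hormone and STAT5 genes 2 rose, Cish (2.22 ± 0.76, adjusted p = 0.0321) and Socs2 (1.74 ± 0.54, adjusted p = 0.0188). Igf1 was at -0.01 by its brightest probe and at 2.78 (adjusted p = 0.00347) by a dimmer one. Cux2 was at 0.24 and not called by its brightest probe, while its other probes were called higher, at 1.98 and 2.41. Bcl6 was at -0.75 and not called, while another probe was called lower, at -1.86. The Cish call was lost in 7 of the 12 fits without 1 array, and the Socs2 call without CL316243 replicate 4 (1.53), without fed replicate 1 (1.52) and with the mean of all probes (0.98). Both genes had overlapping groups. Without fed replicate 6, 1 gene of that list rose and 1 fell.

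Of 32 oxidative phosphorylation genes none rose and 11 fell (median -0.16), a count of 0 with quantile normalization, 2 with normexp correction, 14 without fed replicate 6, 4 without CL316243 replicate 1 and 5 without fed replicate 1 or 4. Of 8 metallothionein and zinc genes Mt2 rose and Mtf1, which encodes the metal-responsive factor, fell (-0.28). Without fed replicate 6, 3 of these rose and none fell, and none rose in 9 of the other 11 fits without 1 array. Of 14 amino acid transporters 2 rose and 3 fell (1 and none without fed replicate 6), led by Slc7a1 (0.70), a carrier of arginine and lysine.

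Many markers of Kupffer cells and macrophages, sinusoidal endothelial cells and stellate cells were lower with CL316243. Of 10 Kupffer cell and macrophage markers 7 fell and none rose, with a median of -1.04, and their summed linear level ran from 26.7 to 85.2 with CL316243 against 60.1 to 138 in fed mice. Vsig4, a complement receptor of Kupffer cells, ran from -1.26 to 0.59 (median 0.21) with CL316243 and from 0.38 to 1.93 (median 1.56) in fed mice (-1.42 ± 0.38 SE, adjusted p = 0.00639), and the defining marker Clec4f was at -0.67 ± 0.25 and not called (adjusted p = 0.05), but it was called in 10 other settings (-0.67 to -0.88). The number of Kupffer cell and macrophage markers called was 2 without CL316243 replicate 4, 5 without fed replicate 6 and 4 without CL316243 replicate 2 or fed replicate 3. Of 7 sinusoidal endothelial markers 6 fell (median -1.0, summed level 25.5 to 49.6 against 51.1 to 78), and of 6 stellate cell markers 4 fell (median -0.45, 47.6 to 71 against 73.5 to 99.4). In bulk tissue fewer cells of a type and less RNA per cell cannot be told apart.

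No marker was called among 11 of neutrophils, 5 of monocytes, 5 of B cells, 3 of NK cells, 5 of adipocytes and 2 of acinar cells. In each of the T cell, cholangiocyte and erythroid lists 1 marker fell (Cd3g, Krt19 and the globin gene Hba-a1, at -0.82, -0.68 and -1.29). Of 9 hepatocyte markers Tat, Cps1, Hnf4a (-0.33) and Ass1 (-0.23) fell. The part of the cell markers in the chemokine, glucocorticoid or other lists was not tested.

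The same agent in AAKO livers gives a second comparison of CL316243 with fed mice across the same pair of experiments. There 7625 of 24252 genes (31.4%) were called, 3758 (15.5%) higher and 3867 (15.9%) lower. AAKO shared 2770 of the 5611 CTRL calls with their direction, which is 49.4% of the CTRL calls and 36.3% of the AAKO calls. A further 252 were called with the other sign and 2589 were not called in AAKO. The difference of the responses was then tested itself, as the CTRL response minus the AAKO response. A shift between the experiments that is equal in both genotypes cancels in it. It was called for 2628 genes (10.8%), of which 42.8% were positive with these values and 55.9% with the authors' deposited log2 table. Of the genes called in CTRL, 886 (3.65% of those tested) had a larger response in CTRL in the same direction, 487 higher and 399 lower, while 136 had a smaller or opposite one and 4589 showed no called difference.

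PPARα targets differed between the genotypes for 24 of 43 members, all with the more positive response in CTRL (background 4.64%). In AAKO 1 rose and 11 fell, with a median of -0.19. Fgf21 was at -1.04 in AAKO and its difference of responses was 4.30 ± 0.84 SE, adjusted p = 0.000666. The values for Plin2 were -0.18 in AAKO and 2.50 ± 0.35 SE, adjusted p = 1.34e-05. For Crat the AAKO response was -1.19, a call in the opposite direction to CTRL (difference 2.43 ± 0.27 SE, adjusted p = 6.15e-07). Cyp4a10 (0.10), Cyp4a14 (0.17) and Acot1 (-0.77) were not called in AAKO, and their differences were 2.28, 2.67 and 2.46. Cpt1a rose by 0.85 in AAKO, and its difference of -0.11 was not called (adjusted p = 0.771). Slc16a1 had a called difference of 1.17.

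The 6 most positive differences among genes that also passed in CTRL were those of Fgf21, Atp2b2, Fut1, Acot3, Ly6d and Tlr12. Atp2b2 was at -0.95 in AAKO (difference 4.04 ± 0.74 SE, adjusted p = 0.000386), and Fut1 at 0.15 (difference 3.61 ± 0.63 SE, adjusted p = 0.000217). With normexp correction these differences were 2.24 and 1.07, and with the authors' deposited table that of Fut1 was 1.88. Tlr12, a toll-like receptor, ran from 3.06 to 4.50 (median 3.37) with CL316243 and from 0.06 to 2.62 (median 2.16) in fed mice in CTRL and was at -1.14 in AAKO, a call in the other direction (difference 3.00 ± 0.58 SE, adjusted p = 0.000586). Acot3 and Ly6d had differences of 3.47 and 3.18.

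Eif4ebp3, Cyp2b10, Cyp2b9, Hsf5 and Id3 were among the 6 most negative. Eif4ebp3, a repressor of cap-dependent translation, ran from 4.07 to 4.69 (median 4.24) with CL316243 and from 5.64 to 6.58 (median 6.04) in fed mice in CTRL and rose by 1.14 in AAKO (difference -2.89 ± 0.34 SE, adjusted p = 9.55e-07). Id3, an inhibitor of helix-loop-helix factors, fell in CTRL (-1.14 ± 0.30) and rose in AAKO (0.89). Cyp2b10 was at 0.87 in AAKO and not called there (difference -2.76 ± 0.82 SE, adjusted p = 0.0243). The difference for Cyp2b9 (-2.72) lost its call under 18 other settings that kept both wash batches, and that for Hsf5, a heat shock factor gene (-2.08), under 1 of them, the slide as a fixed factor. The Hsf5 difference was -0.44 with normexp correction and -0.76 with the authors' deposited table.

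Other lists divided by genotype in different ways. Endoplasmic reticulum chaperones were not lower in AAKO, where 3 rose and none fell with a median of 0.16, and 12 of 19 differences were called, all negative (background 6.2%). Hspa5 was at 0.07 in AAKO (difference -1.06 ± 0.19 SE, adjusted p = 0.000381) and Creld2 at 0.23 (difference -1.95 ± 0.34 SE, adjusted p = 0.000172). Heat shock chaperones fell in both genotypes: 17 of 24 fell and 2 rose in AAKO, the median was -0.75 and 2 differences were called. Fatty acid synthesis genes were lower in AAKO, with 13 of 22 fallen, 1 risen and a median of -0.52, and 13 differences were called, all positive. Me1 was at -0.65, Acly at -1.28 and Pnpla3 at -4.25 in AAKO, with differences of 1.65, 1.90 and 2.53. Liver Pnpla2 rose in AAKO (1.29) and was not called in CTRL (difference -1.10 ± 0.26 SE, adjusted p = 0.00523).

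Acute phase genes were called more often in AAKO, 15 of 26 higher and 1 lower with a median of 0.90, and 1 difference was positive and 6 negative. Fga rose by 1.83 there (difference -1.14 ± 0.31 SE, adjusted p = 0.0152). For Socs3 the AAKO response was 3.37, and its difference of -1.41 was not called (adjusted p = 0.225). Interferon-stimulated genes rose for 6 of 22 in AAKO and fell for 1, with a median of 0.28. The differences of 4 were called, all positive: Usp18 (1.25 ± 0.24 SE, adjusted p = 0.00048), Rsad2 (1.16), Ifit1 (1.14) and Ifit3 (0.92). Amino acid catabolism had 1 positive and 11 negative differences of 26, with Tat at 0.21 and Cps1 at 0.04 in AAKO. Of 19 glucocorticoid targets 7 rose and 4 fell in AAKO, with a median of 0.18.

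For other leading genes no difference between the genotypes was called, which does not show that the responses were equal. Nr1d1 was at 3.16 in AAKO (difference -0.23 ± 0.54 SE, adjusted p = 0.862), Per2 at -2.21 (difference 0.25) and Arntl at -2.36 (difference 0.19). Srebf1 was at -1.56, Irs2 at 1.98 and Igfbp1 at 2.19, none with a called difference. Egr1 rose by 2.75 in AAKO, and its difference of 1.93 was not called (adjusted p = 0.0736). The Kupffer cell and macrophage markers fell in AAKO for 9 of 10 with a median of -1.17, and no difference was called for that list.

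**Figure D4:**
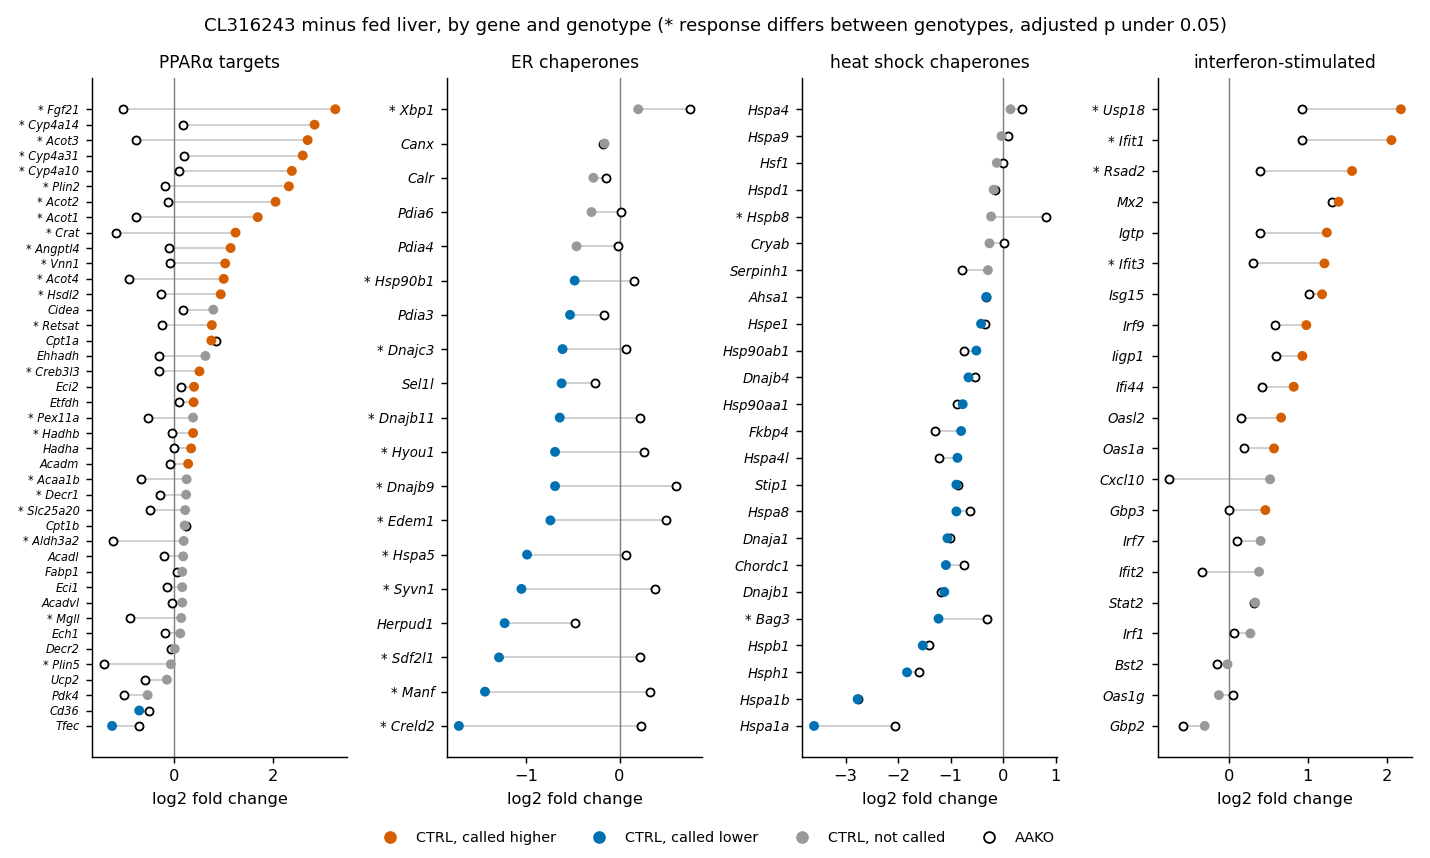
CL316243 minus fed log2 fold change (x axis) of tested members of 4 lists, 1 row per gene, in CTRL (filled, coloured where called) and AAKO (open); an asterisk marks a called difference between the responses. Fgf21 lies at 3.26 in CTRL and -1.04 in AAKO and Creld2 at -1.72 and 0.23, while Hspa1b lies at -2.77 in both.

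The CTRL fasted group belongs to experiment 1 like the CL316243 group, and no gavage is given for it. It enters 2 comparisons that share arrays with the comparison above, so values are given side by side only. Fasted minus fed called 10622 genes (43.8%, with 19.8% higher and 24% lower), and 10031 without fasted replicate 2, an alternative chosen after seeing the data. CL316243 minus fasted called 8990 (37.1%), and 8274 without that array. Of the PPARα targets 39 of 43 were higher in fasted than in fed mice, with or without that array, and the median was 0.97 (1.01 without it) beside 0.39 with CL316243. Cyp4a14 was 7.4 higher in fasted than in fed mice beside 2.84 with CL316243, Cyp4a10 5.93 beside 2.38, and Cidec 5.88 beside 1.76. Pdk4 was 3.45 higher with fasting. For Plin2 the values were 2.18 and 2.32, for Fgf21 4.09 and 3.26, and CL316243 minus fasted was not called for either (0.14 and -0.83).

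Fasting and CL316243 stood differently in other lists. The sterol genes fell for 23 of 24 members with fasting (median -2.13, and -2.08 without fasted replicate 2), where 7 rose and 6 fell with CL316243. Insig1 was at -3.68 with fasting and -1.32 with CL316243, and CL316243 minus fasted was 2.35. Interferon-stimulated genes fell for 15 of 22 with fasting and 1 rose (median -0.86), and Ifit1 was at -0.55 beside 2.06. Heat shock chaperones fell for 20 of 24 and rose for 1 (median -0.97) and endoplasmic reticulum chaperones for all 19 (median -1.41) with fasting. Arntl was 1.75 with fasting beside -2.17 with CL316243, and Dbp -2.22 beside 1.74, opposite in sign and called in each case. Cirbp, a cold-inducible RNA-binding protein, was 3.43 with fasting beside 0.93.

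**Figure D5:**
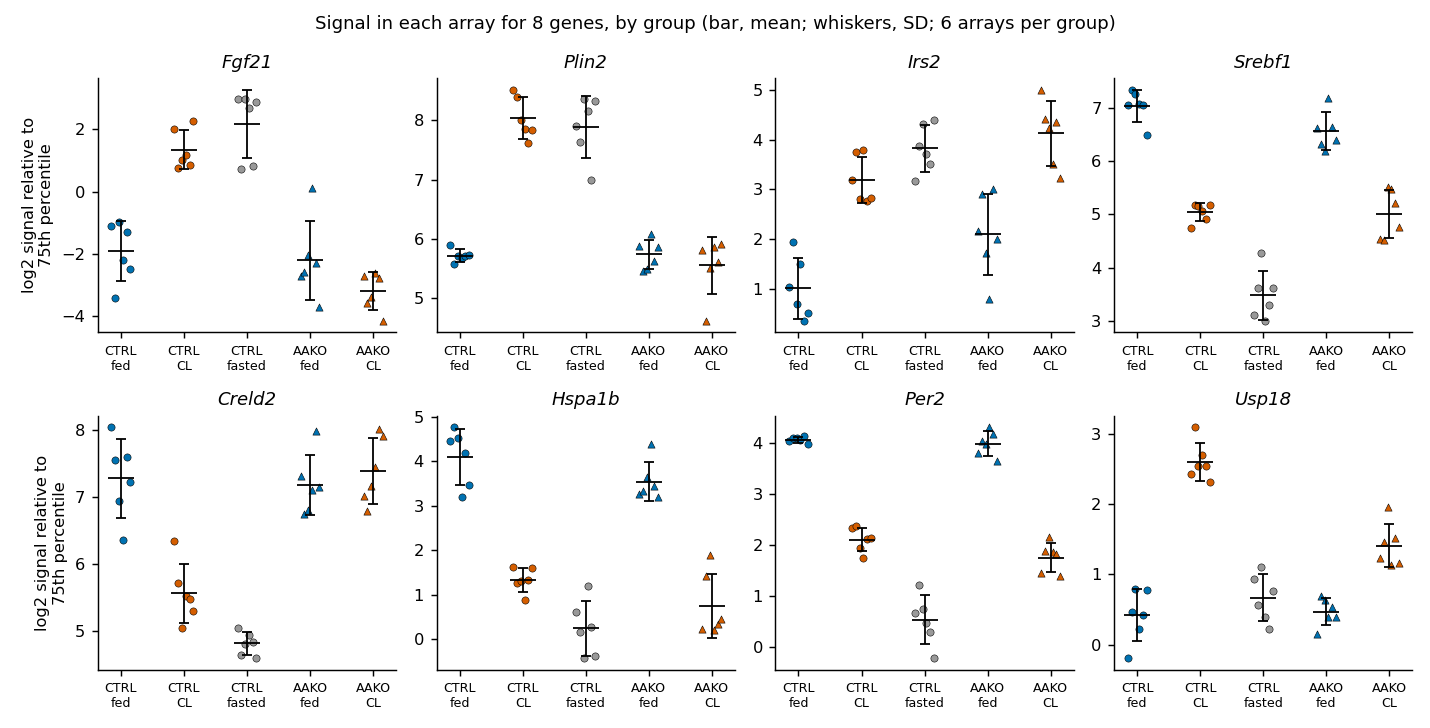
Relative log2 signal (y axis) of 8 genes in the 5 groups used (x axis), with 1 point per array, bars at the mean and whiskers of 1 SD (n = 6). Fgf21 and Plin2 are higher in the CTRL CL316243 and fasted arrays than in all CTRL fed arrays, and their AAKO fed and CL316243 arrays overlap.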

How the data were processed

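Liver RNA was hybridised to Agilent one-colour mouse arrays, and the 36 scanner files hold processed intensity, which per the file headers was background-corrected with version 10.10.1.1 of Agilent's Feature Extraction. The authors' deposited log2 value table (36898 probes, limma per the submitters' processing notes) served as an alternative: each of its 36 columns matched its own array best (r at least 0.99957), its column medians are 6.91 in both CTRL groups, and its exact scaling is not given in the sources used here. Control spots and outlier-marked spots (0.127%) were left out, and log2 intensity minus the log2 of the array's 75th percentile was used. RefSeq named 32994 of 56605 probes (58.3%), and other probes kept the files' names. Probe positions are in mm9. The brightest probe stood for a gene, and a gene was tested when well above background on at least 5 of 6 arrays in 1 of the 6 groups (24252 of 37325 genes). limma 3.58.1 in R 4.3.3 fitted 6 group means and the wash batch on all 36 arrays, with eBayes and Benjamini-Hochberg adjustment, and was tested on simulated data. The difference of responses is the interaction of genotype and CL316243.

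Genes were named by rule: the 12 highest and 12 lowest called genes without overlap, the 6 highest and 6 lowest differences of responses among genes called in both tests in the same direction, and list members, some of which are not reported here. The members and lists were chosen with earlier results of these data known. Alternatives covered the background correction, scaling, dim-probe filter, probe choice, batch terms and single arrays. The number of arrays limits the precision.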

Additional observations from a re-analysis of the deposited data

Results flagged for a closer look

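Within the 2 CTRL groups, 220 sets of 6 arrays (110 named genes) were searched for an array whose gap to the nearest of the others was large against the range of the group, by Dixon's criterion at 95%. Chance marks about 1 in 20 such sets, and 20 were found. Values are relative log2 signals of that array against the range of the other 5. Fed replicate 4 lay apart for Nipal1 (-7.54 against -4.61 to -3.38) and Pnpla2 (4.10 against 4.43 to 4.58). CL316243 replicate 5 lay apart for Cyp26a1 (-0.41 against -1.74 to -1.32), Pdk4 (-1.81 against -1.15 to -0.79) and Dbp (6.15 against 6.59 to 6.82). CL316243 replicate 4 lay apart for Cyp2b10 (0.62 against -1.68 to -0.84), Cyp2b9 (-0.80 against -2.99 to -2.25) and Bag3 (3.54 against 3.79 to 3.92). Fed replicate 6 lay apart for Srebf1 (6.48 against 7.04 to 7.33), Elovl5 (4.67 against 5.02 to 5.19), Saa1 (10.14 against 6.09 to 7.42), Saa2 (10.59 against 6.43 to 7.92), Lcn2 (6.40 against 0.98 to 2.51) and Mt2 (9.48 against 2.30 to 3.89). CL316243 replicate 3 lay apart for Igfbp1 (3.89 against 5.89 to 6.57), Cxcl13 (-2.62 against -4.24 to -3.71) and Hba-a1 (8.80 against 7.30 to 7.83). CL316243 replicate 1 lay apart for Manf (4.48 against 3.56 to 3.82) and Nr1d2 (2.61 against 3.09 to 3.28). Fed replicate 2 lay apart for Alb (10.90 against 10.63 to 10.69). Of the 20 sets, 6 come from fed replicate 6, for acute phase, metal-binding and lipogenic genes. The part of any cause in these was not tested.

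For 40 of the 110 named genes the response to CL316243 differed between CTRL and AAKO in the limma test of the difference itself. Over all tested genes that difference was called for 10.8%. Some of the named genes were picked by this same test, so their count is not a separate result. Values are the CTRL response minus the AAKO response on the log2 scale. The most positive were those of Fgf21 (4.30), Atp2b2 (4.04), Fut1 (3.61), Acot3 (3.47), Ly6d (3.18), Tlr12 (3.00), Plch2 (2.96), Cyp4a14 (2.67), Il1rn (2.58), Pnpla3 (2.53), Rab30 (2.53) and Plin2 (2.50). Smaller positive differences were those of Acot1 (2.46), Crat (2.43), Cyp4a10 (2.28), Pde4d (2.12), Inhbe (1.65), Me1 (1.65) and Usp18 (1.25), and then of Slc16a1 (1.17), Rsad2 (1.16), Ifit1 (1.14), Vnn1 (1.13), Fasn (1.11) and Elovl5 (0.87). The most negative were those of Eif4ebp3 (-2.89), Cyp2b10 (-2.76), Cyp2b9 (-2.72), Hsf5 (-2.08), Id3 (-2.03), Creld2 (-1.95), Manf (-1.77) and Sdf2l1 (-1.52). The others were those of Tat (-1.19), Fga (-1.14), Pnpla2 (-1.10), Hspa5 (-1.06), Bag3 (-0.93), Hsp90b1 (-0.65) and Cps1 (-0.64). The difference of Cyp2b9 lost its call under many other settings.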

How the results depend on the processing

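The counts of called genes in the 5 comparisons were within 1.5 times the values above under the alternatives run, except within single wash batches, which hold fewer arrays. In wash batch 1 alone the counts were 2100 for CL316243 minus fed in CTRL, 4684 in AAKO, 458 for the difference of responses, 4552 for CL316243 minus fasted and 5998 for fasted minus fed. In wash batch 2 alone the first 3 were 1623, 2287 and 480. Leaving out 1 CTRL CL316243 or fed array at a time gave 4649 to 5529, 7483 to 7668, 2276 to 2602, 8375 to 9062 and 10006 to 10662 in the same order, and without fasted replicate 2, chosen after seeing the data, 6005, 7993, 2972, 8274 and 10031. Replicate numbers were not taken as pairs, since 2 of the 6 same-numbered pairs correlated above 0.1 (r from -0.04 to 0.2), and with the replicate block the counts were 5568, 7548, 2575, 8925 and 10509. Values near 0 changed sign: Alb was 0.02 with the mean of all probes, 0.01 in wash batch 2 and -0.03 to 0.04 with 1 array left out. Adrb3 was -0.3 in wash batch 2 and -0.1 to 0.2 with 1 array left out. Lcn2 was -0.21 in wash batch 2. Of 3377 pairs of a named gene result and a setting, 3165 (93.7%) kept call and direction. The cause of the others was not tested. Normexp correction drew dim genes toward 0 (Fut1 1.08, Cyp4a14 0.96, Il1rn 1.28, Hapln1 -0.49), and signal over background limits Fut1, Shh, Hsf5 and Hapln1.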

Other observations

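Of 20 cell cycle genes 2 rose, Ccnd1, which encodes cyclin D1 (1.58), and Ccnb1 (0.64), and 2 fell, the cell cycle inhibitor gene Cdkn1a (-1.90) and Pcna (-0.24), while Mki67 was not called (0.32). Of 16 collagen and matrix genes Col4a1 (0.56) and Fn1 (0.37) rose, and Timp3, an inhibitor of matrix proteases (-1.38), Lama4 (-0.85) and Col14a1 (-0.70) fell. Of 26 proteasome genes 4 rose and 2 fell with a median of 0.01, and 9 rose with quantile normalization.

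Of 17 NRF2 antioxidant genes Srxn1 (0.53) and Txnrd1 (0.27) rose and none fell, and 2 fell without fed replicate 6. Of 7 genes listed as temperature-responsive, most of them for RNA-binding proteins, Cirbp rose (0.93, with 0.22 and 0.68 by its other probes) and 4 fell, Hspa8 (-0.89), Rbm3 (-0.62), Srsf3 (-0.46) and Srsf7 (-0.27). Cirbp and Rbm3, both cold-induced, differed in sign.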
